A study of Rattus norvegicus with 6 samples.

Results

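The cartilage-type matrix genes followed here are Clec3a, Ucma, Cilp, Cilp2, Matn1, Matn2, Matn3, Matn4, Cnmd and Cytl1, 10 of the 22093 genes that could be named on the array. They were chosen by name as genes of cartilage matrix after signals of the same comparison had been seen, so their differences between ages are a description and carry no p-values. Gene expression was measured in Achilles tendon from male Sprague Dawley rats on 6 Affymetrix Rat Transcriptome Arrays, 3 from neonates 1 day after birth (P 1d) and 3 from rats aged 6 to 8 weeks (P 6-8w). No treatment or genetic change is named for any group, and each array is labelled as a biological replicate of Achilles tendon. Nothing in the labels tells litters apart, so p-values measure only the spread between these samples. Values are log2 RMA signals, where RMA (robust multi-array average) turns the brightness of many short probes into 1 value per transcript, and a step of 1 is nominally a doubling of the signal. The deposited values reach 19.79, above what a scanner of the usual range reads, and no source used here says how this came about, so differences are those of the deposited scale. Each of the 10 genes was read from a single row of the table.

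Cartilage matrix is built from collagen fibrils and aggrecan, held together by smaller adaptor proteins, and several of those adaptors are also made in tendon, above all where it is compressed or enters bone. Matrilins are oligomeric adaptors that link collagen fibrils to proteoglycans; Matn1 and Matn3 are typical of cartilage, whereas Matn2 and Matn4 are found in many tissues. Cilp and Cilp2 encode the cartilage intermediate layer proteins, Clec3a a C-type lectin first found in cartilage, Ucma a small vitamin K-dependent protein of growth plate and articular cartilage, Cnmd the anti-angiogenic protein chondromodulin, and Cytl1 a small secreted protein of chondrocytes.

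Promoter sequences are shown for some of the genes that have an entry in the RefSeq promoter table (build GRCr8), in which 5 of the 10 genes were found (Ucma, Cilp, Cilp2, Matn3 and Cytl1). Each window runs from 250 bases before the annotated start to 50 after it, 5′ to 3′ on the strand of the gene. Capitals mark the letters of 5 motifs searched on both strands: AP-1 (TGACTCA), RUNX (TGTGGT), SOX (ACAAAG or ACAATG), the GC box (GGGCGG) and the TATA box (TATAAA). The motifs were picked after the windows had been read, and none of them overlaps another in these windows. Ucma and Cytl1 are shown as secreted-protein genes that stood higher at P 6-8w, and Cilp and Cilp2 as relatives whose differences had opposite signs. The windows lie at chr17:78212947-78213246 (Ucma, minus strand), chr14:77283596-77283895 (Cytl1, minus strand), chr8:74672198-74672497 (Cilp, plus strand) and chr16:19573857-19574156 (Cilp2, plus strand).
Ucma: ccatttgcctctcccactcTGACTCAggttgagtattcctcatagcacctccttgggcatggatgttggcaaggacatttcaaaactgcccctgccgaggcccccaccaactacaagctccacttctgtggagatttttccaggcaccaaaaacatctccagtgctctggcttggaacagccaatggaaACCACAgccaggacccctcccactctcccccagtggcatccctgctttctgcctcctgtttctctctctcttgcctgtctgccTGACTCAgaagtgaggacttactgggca
Cytl1: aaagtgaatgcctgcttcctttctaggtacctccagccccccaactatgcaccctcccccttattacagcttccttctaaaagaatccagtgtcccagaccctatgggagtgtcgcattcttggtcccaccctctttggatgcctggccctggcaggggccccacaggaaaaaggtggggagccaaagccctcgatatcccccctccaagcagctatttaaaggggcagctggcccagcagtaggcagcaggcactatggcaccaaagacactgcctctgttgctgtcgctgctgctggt
Cilp: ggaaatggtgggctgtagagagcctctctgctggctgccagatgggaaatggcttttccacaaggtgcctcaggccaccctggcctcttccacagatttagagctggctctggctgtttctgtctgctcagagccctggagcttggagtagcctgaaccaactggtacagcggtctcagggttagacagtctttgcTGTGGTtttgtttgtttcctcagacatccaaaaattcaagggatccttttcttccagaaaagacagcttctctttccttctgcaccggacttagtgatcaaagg
Cilp2: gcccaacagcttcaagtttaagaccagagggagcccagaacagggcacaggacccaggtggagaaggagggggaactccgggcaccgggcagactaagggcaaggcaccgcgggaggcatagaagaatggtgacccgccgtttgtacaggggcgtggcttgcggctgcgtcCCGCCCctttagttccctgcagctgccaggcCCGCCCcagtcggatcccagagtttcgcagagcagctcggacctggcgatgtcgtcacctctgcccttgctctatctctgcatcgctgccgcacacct

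The Ucma window held the AP-1 letters at 2 places, the first 231 bases before the start and the second within the bases after it, and the RUNX letters once. The AP-1 letters occur in 4.63% of all 33469 windows of this length and the RUNX letters in 17.3%. Cilp also held the RUNX letters once, 54 bases before its start, and Cilp2 held the GC box at 2 places. The Matn3 window, not printed, held the GC box at 2 places as well, against 33.1% of all windows with at least 1. None of the 5 windows held the SOX letters (29.1% of all windows) or the TATA letters (14.2%), and the Cytl1 window held none of the 5 motifs. A match is a stretch of letters and was not tested as a site. The windows differed in base composition, with 51.0% G and C in Cilp and 63.7% in Cilp2, where the median of all windows is 51.7%.

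The P 1d libraries were not alike in epidermal RNA. The 9 epidermal markers measured averaged 9.45 on P 1d array 1, 11.39 on array 3 and only 4.22 on array 2, where the P 6-8w arrays lay from 4.56 to 4.81. The keratin gene Krt1 stood at 17.94 and 18.86 on arrays 1 and 3 and at 4.25 on array 2. Clec3a was highest on P 1d array 1 and lowest on array 3. Ucma, Cytl1 and Cilp2 spanned at most 0.39 over the P 1d arrays, at signals of 3.74 to 4.46 that are hard to tell from background. The part of skin in the differences was not tested. Because of the epidermal markers, results are also given against P 1d replicate 2 alone. In that fit, where P 1d has 1 array that is assumed to vary like the P 6-8w arrays, the differences were 10.51 for Clec3a, 3.88 for Ucma, 2.64 for Cytl1, 2.10 for Cilp2 and -0.86 for Cilp. Clec3a and Ucma were then past the limits defined next, and Cytl1, Cilp2 and Cilp were not.

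A difference is always the P 6-8w mean minus the P 1d mean, with its standard error (SE) from limma fitted over all named genes. Clec3a, Ucma, Cytl1 and Cilp2 stood higher at P 6-8w, Cilp stood lower, and the 4 matrilins and Cnmd lay closer to their P 1d signals. By the limits used throughout, a Benjamini-Hochberg adjusted p under 0.05 from limma and a fold change over 2, 4 of the 10 genes were past the limits as higher and 1 as lower. Among all named genes 19.2% were past them, 2.46% as higher and 16.8% as lower. The P 6-8w and P 1d arrays did not overlap in 7 of the 10 genes, where the share over all named genes was 68.9%. Since the genes were chosen with this contrast known, nothing is read from these counts. The median difference of the 10 genes was 0.48 and that of all named genes 0.04. In whole tissue, fewer cells that make a transcript and less transcript per cell cannot be told apart.

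**Figure D1:**
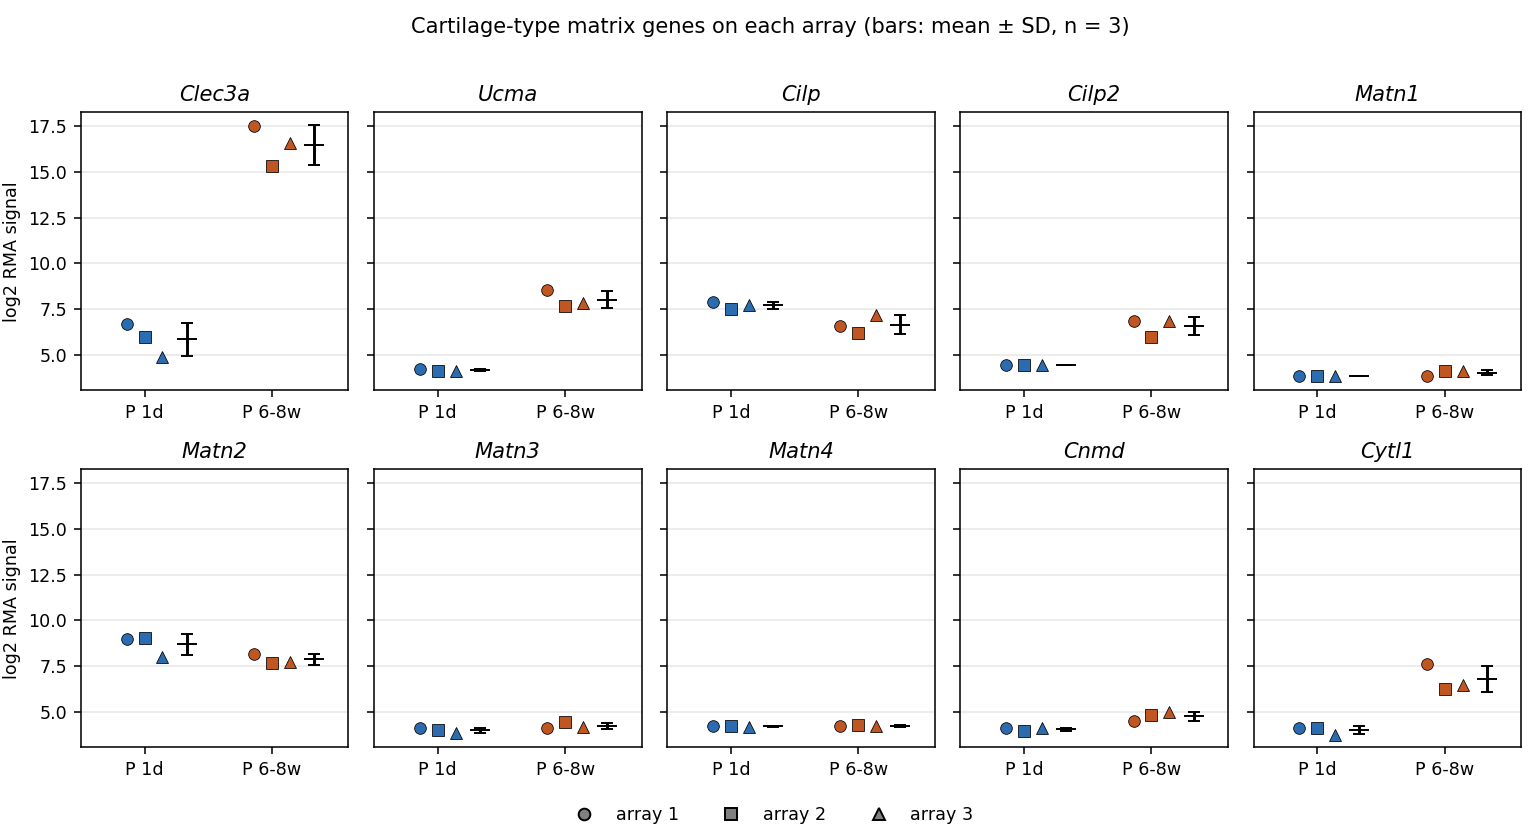
Log2 RMA signal of the 10 genes on each array, with P 1d in blue and P 6-8w in orange, symbols for arrays 1 to 3, and bars for the mean ± SD (n = 3). Clec3a goes from 4.87 to 6.67 at P 1d to 15.32 to 17.51 at P 6-8w, whereas Matn1, Matn3 and Matn4 stay between 3.83 and 4.41 on all 6 arrays.

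Clec3a had the largest difference of the group. Its signal was 6.67, 5.95 and 4.87 on P 1d arrays 1, 2 and 3 and 17.51, 15.32 and 16.56 on P 6-8w arrays 1, 2 and 3. Every P 6-8w array was thus far above every P 1d array, and single pairs of arrays differed by 8.65 to 12.64. The group means were 5.83 ± 0.91 and 16.46 ± 1.10 (SD, n = 3), a difference of 10.63 (SE 0.71), the second highest among the 22093 named genes. The highest values in the table lay between 19.56 and 19.79 on the 6 arrays, and no array of Clec3a was at them.

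Ucma, the gene of the vitamin K-dependent matrix protein, was near the bottom of the scale in neonates and of moderate signal in older rats. It had P 1d signals of 4.21, 4.12 and 4.13, against 8.53, 7.65 and 7.81 at P 6-8w, with no overlap and a difference of 3.84 (SE 0.24). The P 1d signals lay close to the median of all 68842 rows of the table, 3.93 to 3.98 on those arrays, which makes them hard to tell from background, so the difference may understate the change. No detection calls were used here. At P 6-8w its highest and lowest arrays differed by 0.88, as those of Cilp2 did, less than in Clec3a (2.19) or Cytl1 (1.34).

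Cytl1, the gene of the small secreted chondrocyte protein, had P 1d signals of 4.13, 4.13 and 3.74, against 7.60, 6.26 and 6.46 at P 6-8w. All P 6-8w arrays were above all P 1d arrays, and the difference was 2.77 (SE 0.38). P 6-8w array 1 stood more than 1 log2 unit above the other two, which were close to each other. The P 1d signals were near the median of all rows, as in Ucma, so this difference too is measured against background and may understate the change.

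The 2 cartilage intermediate layer genes differed in sign. Cilp2 had 4.46 on each P 1d array and 6.85, 5.97 and 6.85 at P 6-8w, a difference of 2.10 (SE 0.26) without overlap. One value on all 3 P 1d arrays is common in this table: it occurred in 3678 named genes, 16.6%, so the zero spread of Cilp2 at P 1d is no measure of its precision. Cilp, whose protein binds TGF-beta 1, had P 1d signals of 7.89, 7.5 and 7.72, against 6.59, 6.16 and 7.17 at P 6-8w. Its groups did not overlap either, but the closest pair of arrays differed by only -0.33, and the difference of the means was -1.06 (SE 0.27). Cilp was past the limits only narrowly, and it lay close to the median difference of named genes with a mean from 6 to 8 over the 6 arrays, -0.97. It was past them in 1 of the 6 fits that left out an array, that without P 6-8w replicate 3 (-1.33). Without P 1d replicates 1, 2 or 3, or P 6-8w replicates 1 or 2, its difference was -0.97, -1.16, -1.06, -1.04 or -0.82, in that order, and it was not past the limits. With quantile-normalized arrays the sign of Cilp turned (0.09, SE 0.30), whereas Cilp2 kept a difference of 2.50 (SE 0.24).

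The matrilin genes showed little of this. Matn1 had 3.85 on each P 1d array and 3.85, 4.08 and 4.13 at P 6-8w, and 310 named genes shared its value on all 3 P 1d arrays. Matn3 had P 1d signals of 4.08, 4.0 and 3.83, against 4.10, 4.41 and 4.15 at P 6-8w. Matn4 had P 1d signals of 4.20, 4.20 and 4.18, against 4.21, 4.28 and 4.20 at P 6-8w. These 3 genes were dim on all 6 arrays, near the median of all rows (3.93 to 3.98 at P 1d and 4.43 to 4.54 at P 6-8w), and their differences of 0.17, 0.25 and 0.04 were not past the limits. Dim genes as a whole stood slightly higher at P 6-8w: named genes with a mean signal from 3 to 4 had a median difference of 0.33, and those from 4 to 5 of 0.22. The signs of the 3 genes turned after quantile normalization, to -0.19, -0.12 and -0.33.

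Matn2, which encodes the matrilin of many connective tissues, was the 1 matrilin with a signal well above the dim range. It had P 1d signals of 9.0, 9.04 and 8.00, against 8.17, 7.68 and 7.71 at P 6-8w. The groups overlapped, since P 1d array 3 lay below P 6-8w array 1, and the difference of -0.83 (SE 0.33) was not past the limits. P 1d array 3 decided this: without it the difference was -1.17 (SE 0.18) and past the limits as lower. Genes of similar brightness were mostly lower as well, with a median difference of -1.70 for named genes with a mean from 8 to 10 over the 6 arrays, of which 72.7% were past the limits as lower. The sign of Matn2 turned to 0.75 (SE 0.29) after quantile normalization.

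Cnmd, the chondromodulin gene, had P 1d signals of 4.10, 3.94 and 4.08, against 4.47, 4.79 and 4.98 at P 6-8w. All P 6-8w arrays were above all P 1d arrays, and the difference of 0.71 (SE 0.14) stayed under a fold change of 2. Tnmd, the gene of its close relative tenomodulin and a tendon marker, was far brighter than background, with P 1d signals of 14.91, 14.38 and 13.44, against 13.47, 9.36 and 12.37 at P 6-8w. Its groups overlapped, and the difference of -2.51 was not past the limits (adjusted p = 0.106 from limma). After quantile normalization the difference of Tnmd was 0.05.

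**Figure D2:**
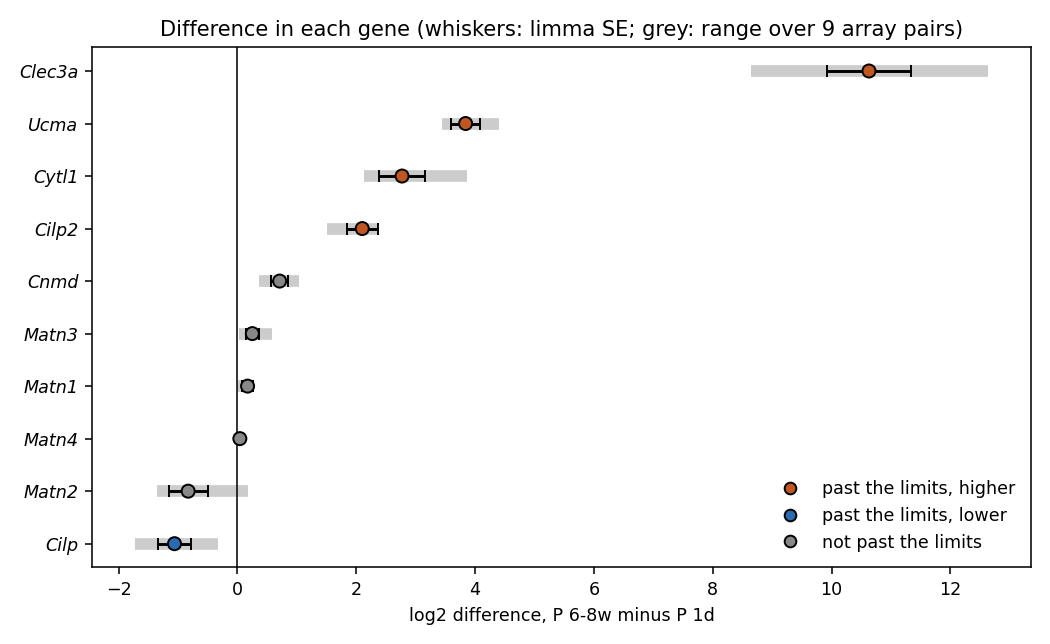
Log2 difference of each gene, P 6-8w minus P 1d, with the limma SE as whiskers and the range over all 9 pairs of arrays in grey. Clec3a (10.63), Ucma (3.84), Cytl1 (2.77) and Cilp2 (2.10) lie apart from the matrilins and Cnmd, and the bar of Matn2 crosses 0.

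Under the scalings tried, Clec3a, Ucma, Cytl1 and Cilp2 kept their sign and stayed past the limits. After quantile normalization they had 11.97, 4.52, 3.16 and 2.50, in that order. Centring each array on the median of its bright named genes moved the median difference of all genes to 1.83, and the 4 genes then had 12.42, 5.63, 4.56 and 3.89, while the sign of Cilp turned to 0.73. This centring adds 1 constant to each array, so it leaves the distance of a gene from the median of all genes as it was. In the fits that left out 1 array, the 4 genes were past the limits in all 6.

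The other genes of cartilage were examined in 4 lists written by hand, 46 genes of which 44 were measured. Of these, 4 were past the limits as higher at P 6-8w, 3 as lower, and 37 were not past them. Among all named genes 2.46% were higher and 16.8% lower. Some of the 37 had an adjusted p under 0.05 and missed only the fold limit, such as Col9a2 (difference 0.31, adjusted p = 0.00472 from limma). The median difference was 0.22, beside 0.04 for all named genes. The median signal of the 44 genes was 4.49 to 5.11 per array. Named genes with a mean from 3 to 4 and from 4 to 5 had median differences of 0.33 and 0.22. The higher ones were Chad, Comp, Prelp and Mgp, which all encode small matrix proteins or linkers of collagen, and the lower ones were Col11a1, Mef2c and Arid5b. Col2a1, Acan and Sox9 were not among the higher ones. After quantile normalization they had differences of 0.89, 0.33 and 0.96, in that order. Col2a1 and Sox9 then missed only the fold limit (adjusted p = 0.00556 and 0.00469 from limma). Against P 1d replicate 2 alone, Chad, Comp, Prelp and Mgp had 11.04, 5.47, 2.17 and 1.55 and were not past the limits, and of the 44 genes Mef2c alone was (-4.77).

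**Figure D3:**
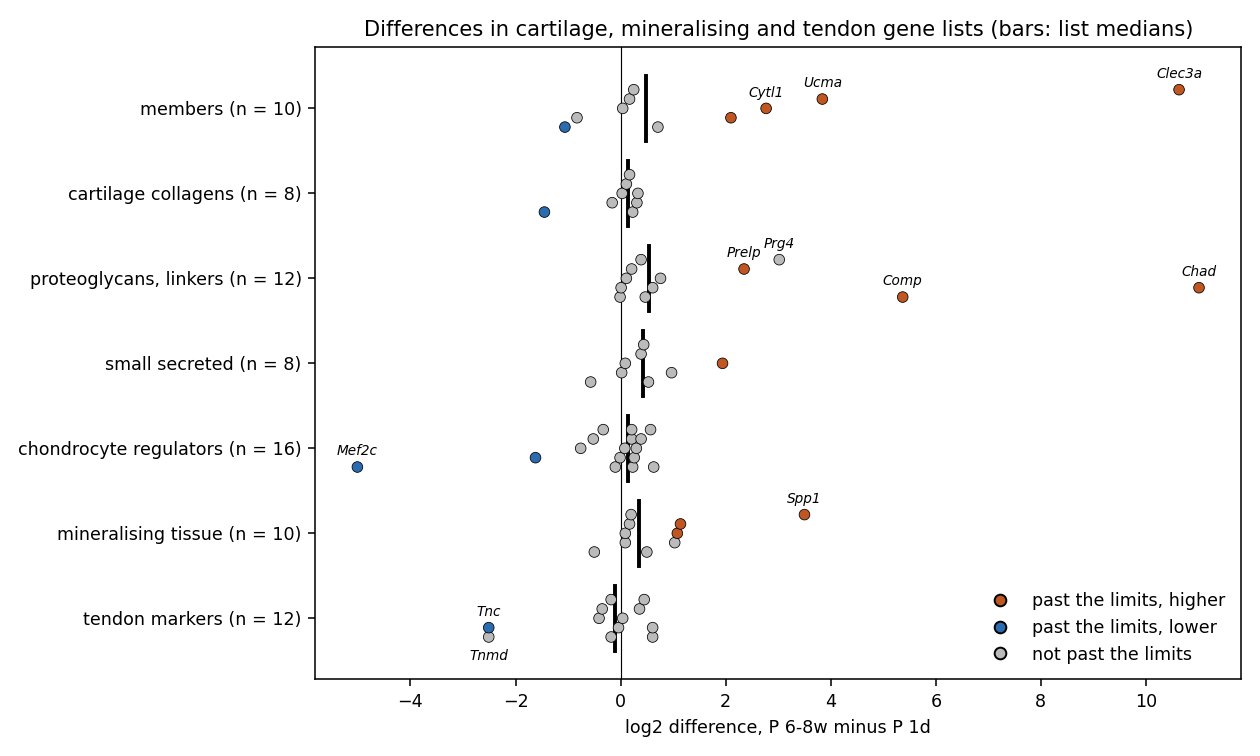
Log2 difference, P 6-8w minus P 1d, of every measured gene in the 10-gene group, the 4 lists of other cartilage genes, the mineralising tissue list and the tendon markers, with list medians as black bars. Clec3a, Chad and Comp lie far to the right at 10.63, 11.01 and 5.37, while the cartilage collagens lie between -1.45 and 0.33.

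Among 12 proteoglycans and linkers, 3 were higher and none was lower. Chad, whose product chondroadherin binds collagen and integrin, had P 1d signals of 3.56, 3.54 and 3.59, against 16.57, 13.00 and 14.16 at P 6-8w (difference 11.01, SE 0.90, adjusted p = 0.000663 from limma). Comp, the pentameric collagen-binding glycoprotein of cartilage and tendon, had P 1d signals of 5.91, 5.28 and 4.96, against 11.98, 9.49 and 10.78 at P 6-8w (difference 5.37, SE 0.66, adjusted p = 0.0022 from limma). Prelp, a leucine-rich proteoglycan that anchors basement membrane to collagen, differed by 2.35 (SE 0.22, adjusted p = 0.00101 from limma). In all 3 the groups did not overlap, which also held for Clec3a and for 68.9% of all named genes. The P 1d signals of Chad lay below the median of all rows on those arrays (3.93 to 3.98) and could not be told from background, so its difference may understate the change. Prg4, the gene of the joint lubricant lubricin, had P 1d signals of 9.76, 8.79 and 8.79, against 14.50, 10.09 and 11.81 at P 6-8w, and its difference of 3.02 did not pass (adjusted p = 0.0702 from limma). Without P 6-8w replicate 2 it did, at 4.04 (adjusted p = 0.0257 from limma), as it did with quantile-normalized arrays at 5.07 (adjusted p = 0.00839 from limma). Acan, the aggrecan core protein gene, had P 1d signals of 6.34, 5.10 and 5.08, against 6.22, 5.11 and 5.16 at P 6-8w, nearly the same values at both ages (difference -0.01, SE 0.48, adjusted p = 0.99 from limma).

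Of 8 cartilage collagens none was higher and 1 was lower. Col2a1, the main collagen of hyaline cartilage, had P 1d signals of 7.15, 6.90 and 6.75, against 6.90, 6.51 and 6.90 at P 6-8w, with overlapping groups (difference -0.16, SE 0.16, adjusted p = 0.395 from limma). Col9a1, Col9a2 and Col9a3, the type IX collagen chains on the surface of type II fibrils, had differences of 0.33, 0.31 and 0.17, all under a fold change of 2. Col10a1, the collagen of hypertrophic chondrocytes, was dim at 3.85 to 4.17 on all 6 arrays. Col11a1, which sets the diameter of collagen fibrils, had P 1d signals of 10.09, 9.26 and 8.39, against 8.17, 7.44 and 7.78 at P 6-8w (difference -1.45, SE 0.46, adjusted p = 0.0432 from limma). This call was narrow. It was kept without P 1d replicate 3 (-1.88, adjusted p = 0.0197 from limma) and lost without each of the other 5 arrays. The difference was then -1.03 without P 1d replicate 1 and -1.44 without P 1d replicate 2. It was -1.64, -1.27 and -1.44 without P 6-8w replicates 1, 2 and 3. The adjusted p from limma in these 5 fits ran from 0.0664 to 0.126. The call was also lost with the methods' t-test, with and without Benjamini-Hochberg adjustment. Its sign turned to 0.15 after quantile normalization. Named genes with a mean from 8 to 10, where Col11a1 lay, had a median difference of -1.70, and 72.7% were past the limits as lower.

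Of 8 small secreted proteins of cartilage 1 was higher and none was lower. Mgp, which encodes matrix Gla protein, an inhibitor of calcification that is vitamin K-dependent like Ucma, had P 1d signals of 9.53, 10.03 and 9.36, against 12.31, 11.03 and 11.40 at P 6-8w (difference 1.94, SE 0.37, adjusted p = 0.00885 from limma). Of 16 regulators of chondrocytes none was higher and 2 were lower. Sox9, the transcription factor gene of the chondrocyte lineage, had P 1d signals of 6.07, 5.72 and 6.08, against 6.24, 6.01 and 6.32 at P 6-8w, overlapping groups with a difference of 0.23 (adjusted p = 0.191 from limma). Mef2c, a factor of muscle as well as of hypertrophic chondrocytes, fell by 5.01 (SE 0.24, adjusted p = 0.000184 from limma), and Arid5b, a chromatin regulator, fell by 1.62 (SE 0.14, adjusted p = 0.000813 from limma). After quantile normalization Mef2c had -2.50 and stayed past the limits, while Arid5b had -0.37 and was not past them. Named genes with a mean from 6 to 8, where Arid5b lay, had a median difference of -0.97, and 47.5% were past the limits as lower. Of the skeletal muscle markers 7 of 9 were lower at P 6-8w, with mean signals of 16.03 to 16.47 at P 1d and 11.90 to 14.11 at P 6-8w. Bright genes were mostly lower in general: 74.5% of named genes with a mean from 10 to 12 were past the limits as lower. Mef2c and most of the muscle markers were brighter than that band, and no share was read for genes as bright as they were. The part of muscle in the difference of Mef2c was not tested.

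Among 9 measured relatives of the members, Mgp was the 1 higher gene, and Itm2a and Vwa5a were lower. Itm2a, the gene of a membrane protein with a BRICHOS domain like those of Cnmd and Tnmd, stood at the highest value of each P 1d array, which many other rows share, and at 12.02, 8.62 and 11.06 on the P 6-8w arrays. Its measured difference of -9.19 (adjusted p = 0.000996 from limma) may therefore understate the size of the change. Vwa5a, like the matrilins the gene of a protein with a von Willebrand factor A domain, had a difference of -1.38 (adjusted p = 0.0158 from limma). It was not past the limits when all rows of the gene were averaged (-0.60) or after quantile normalization (-0.41), nor in the fits lacking P 1d replicate 1 (-1.34), P 6-8w replicate 2 (-1.25) or P 6-8w replicate 3 (-1.28).

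Of 10 measured genes of mineralising tissue, 3 were higher at P 6-8w and none was lower, with a median of 0.35. Spp1, the osteopontin gene, had P 1d signals of 5.22, 4.93 and 4.80, against 7.73, 7.47 and 10.24 at P 6-8w (difference 3.50, SE 0.77, adjusted p = 0.0135 from limma). The call was lost without P 1d replicate 3 (3.40, adjusted p = 0.05 from limma). Dmp1, a bone matrix protein gene, differed by 1.14 (adjusted p = 0.0268 from limma) and Ibsp, the bone sialoprotein gene, by 1.08 (adjusted p = 0.025 from limma). Neither was past the limits with the methods' t-test after Benjamini-Hochberg adjustment or after quantile normalization. Each was past the limits in 1 of the 6 fits that left out an array, that without P 6-8w replicate 1 (1.48 and 1.39). Without P 1d replicates 1, 2 and 3 and P 6-8w replicates 2 and 3 the differences were 1.10, 1.09, 1.23, 1.02 and 0.92 for Dmp1 and 1.08, 1.08, 1.06, 1.01 and 0.83 for Ibsp. Alpl, Sp7 and Bglap, which mark osteoblasts, were dim, between 3.53 and 4.72 on all 6 arrays. Their differences were 0.50, 0.09 and 0.20, and that of Alpl missed only the fold limit (adjusted p = 0.0158 from limma). Of the 10 genes, 9 had a positive difference.

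The 3 P 6-8w arrays were ordered alike in the members that were past the limits as higher. Clec3a, Ucma, Cytl1 and Cilp2 were all lowest on array 2 and all highest on array 1, in Cilp2 jointly with array 3. The same order held for Chad, Comp, Prelp and Mgp. Array 2 was also the lowest of the 3 in 1702 of the 1970 named genes with a mean signal of at least 8, and array 1 the highest in 1533. Cilp followed another order, with array 3 highest, and Cnmd was lowest on array 1. Spp1, Dmp1 and Ibsp, also past the limits as higher, were highest on array 3.

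**Figure D4:**
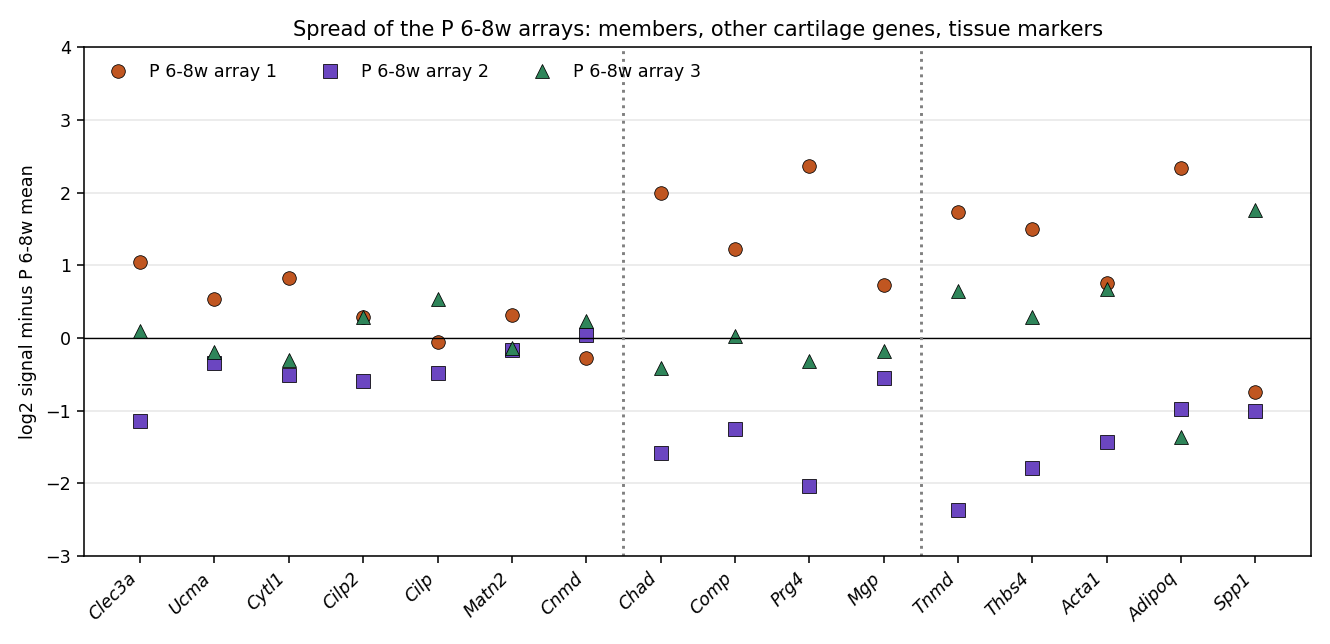
Log2 signal on each P 6-8w array minus the mean of the 3, for 7 of the 10 genes (left), 4 other cartilage genes (middle) and markers of tendon, muscle, fat and bone (right). Array 2 lies below the mean for Clec3a (-1.14), Chad and Comp and also for the tendon marker Tnmd, while Spp1 is highest on array 3.

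Markers of other tissues were read on the same arrays. All 9 measured muscle markers were lowest on array 2, the skeletal actin gene Acta1 with 19.59, 17.41 and 19.52. All 7 fat markers were highest on array 1, and 4 of them were higher at P 6-8w than at P 1d. Adipoq, the adiponectin gene, had P 1d signals of 4.24, 4.92 and 3.86, against 11.47, 8.15 and 7.77 at P 6-8w (adjusted p = 0.0132 from limma, and not past the limits without P 1d replicate 3, where its difference was 4.55). The order of Adipoq thus shared its highest array with Clec3a but not its lowest. The mean signal of the 7 fat markers was 3.99 to 4.23 at P 1d and 5.55 to 6.83 at P 6-8w, and the part of fat, muscle or joint tissue in the differences above was not tested. Of the 12 tendon markers, Dcn, Kera, Ogn, Thbs4, Tnmd and both type I collagen genes were bright at both ages, at 9.36 or above on all 6 arrays. The tendon transcription factor genes Scx and Mkx were dim at both, with 4.44 to 4.55 and 4.72 to 5.08. Tnc, the tenascin C gene, was the 1 tendon marker past the limits (difference -2.51, adjusted p = 0.0182 from limma), but not with the methods' t-test after Benjamini-Hochberg adjustment, after quantile normalization (-0.40) or when P 6-8w replicate 3 (-2.61) or either of P 1d replicates 1 (-2.22) and 3 (-2.38) was left out.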

How the data were processed

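Achilles tendon RNA of 3 P 1d and 3 P 6-8w rats was hybridised to 1 array each. The authors made the log2 signals by RMA with the array maker's default settings, with arrays scaled globally, and deposited them in a pair of tables whose values are equal (413052 of 413052). For the probe annotation, the build was not given in the sources used here. Of 68842 rows, 23446 name 1 gene in the platform annotation, with symbols updated by gene ID, and the row with the highest mean was taken where a gene had several, which left 22093 genes. Groups came from the sample titles. They were compared with limma 3.58.1 (lmFit, eBayes) in R 4.3.3 without covariates, where the methods name a plain t-test, the limits being an adjusted p (Benjamini-Hochberg) below 0.05 with a log2 difference beyond 1 either way. Protein sequences, also planned, were not used here. The number of arrays limits the precision, depth does not apply, and nothing in the labels says that same-numbered arrays belong together.

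The 10 genes, the motifs and all lists were chosen with earlier results of these data known. Named genes were the 10 members, up to 4 genes past the limits in each direction per list, Col2a1, Acan, Comp, Sox9, Tnmd and Mgp in any case (Clec3b, also meant to be named, was not read from a row with 1 symbol), and the brightest markers of other tissues. Prg4, the type IX collagens, Col10a1, Alpl, Sp7, Bglap and the single tendon markers were named after their values were seen. The alternatives were the methods' t-test, limma-trend, a replicate block, 3 scalings, a limit on dim genes, averaged rows per gene, leaving out each array, and P 1d replicate 2 alone. Markers of endothelium, macrophages, red cells and Schwann cells were also read: of 6, 7, 5 and 4 measured, 1, 0, 0 and 0 were higher and 2, 3, 0 and 0 lower.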

Additional observations from a re-analysis of the deposited data

How the results depend on the processing

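Of the 10 genes, Clec3a, Ucma, Cytl1, Cilp2 and Cnmd kept the sign of their difference in all alternatives that gave a value, and Cilp, Matn1, Matn2, Matn3 and Matn4 did not. The count of the 10 genes past the limits was 4 higher and 1 lower. It was 8 higher and 0 lower with each array centred on its bright named genes, where the median difference of all genes was 1.83 and Cilp had 0.73. It was 4 higher and 0 lower after quantile normalization, where Cilp had 0.09, and 0 were lower with the methods' t-test after Benjamini-Hochberg adjustment. Against P 1d replicate 2 alone it was 2 higher and 0 lower. Leaving out each array gave 4 higher and from 0 to 1 lower, the 1 being Matn2 without P 1d replicate 3 and Cilp without P 6-8w replicate 3. Of the other cartilage genes, 4 were higher and 3 lower. These counts were 4 and 2 with the methods' t-test, adjusted or not, where Col11a1 lost its call, 41 and 1 with bright-gene centring, 7 and 1 after quantile normalization, and 0 and 1 against P 1d replicate 2 alone, where fewer arrays enter the fit. Without an array they ranged over 4 to 6 and 2 to 3, and with the replicate block they were 5 and 3, Prg4 being added. The causes were not tested. Over all named genes, 544 were higher and 3705 lower, against 894 and 990 after quantile normalization, 17280 and 591 with bright-gene centring and 67 and 1092 against P 1d replicate 2 alone. With the replicate block the 10 genes gave 4 higher and 1 lower, as without it, and 501 and 3635 genes were called in all. Deviations of same-numbered arrays correlated at 0.01, -0.113 and 0.046, and those of other pairs from -0.119 to 0.114. No pairing by number was seen, but so few arrays cannot exclude one. Members with a mean under 5 (Matn1, Matn3, Matn4 and Cnmd) gave no value once dim genes were left out. Signal over background limits what can be said of these 4, and of the P 1d signals of Ucma, Cytl1, Cilp2 and Chad.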
